A study of Mus musculus with 4 samples.

Results

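The 33 genes described here fall into a set of 27 immediate-early genes and a set of 6 heat shock genes, taken by symbol from the 31054 features of 2 single-cell RNA matrices of mouse endothelium. All 33 symbols were found in both matrices, each with at least 1 unique molecular identifier (UMI, 1 captured transcript molecule) in each library. All 33 also passed the filter on low counts in each of the 6 comparisons made.

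Immediate-early genes are switched on within minutes of a stimulus from transcription factors that are already present in the cell, so their induction needs no new protein. Growth factors, cytokines, changes in flow and mechanical stress can all induce them in endothelium, and so can enzymatic dissociation of a tissue. Heat shock genes encode chaperones, which hold unfolded proteins and help them fold. Some chaperones are present in every cell, whereas others are made when heat shock factor 1 is released by unfolded protein and binds repeated heat shock elements. The inducible transcripts of both kinds are known to respond to how a tissue is prepared.

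The cells came from the ears of C57BL/6 mice at postnatal day 8. Live cells positive for the endothelial surface protein CD31 and for Rtom, a reporter that Cdh5CreERT2 switches on, had been sorted. Cdh5CreERT2 is an inducible recombinase driven by the promoter of the endothelial cadherin gene, so cells that never used that promoter were not selected. Every cell described here shared that strain, age, reporter and sort, and no treatment or mutation was compared. The labels call the 2 mRNA libraries biological replicates of a single group. They do not state how many mice went into each. Library was a term in the fit, so p-values rest on how differences between cell groups varied over these 2 libraries. The spread used for each gene was in part shared over all genes tested. The p-values do not measure the spread among mice.

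There were 15989249 UMIs over 1745 barcodes in library 1 and 26675353 UMIs over 2877 barcodes in library 2. Of the 3750 cells that passed the filters, 1500 and 2250 by library, 3354 were endothelial by their markers. Barcodes with over 10% mitochondrial UMIs made up 13.8% of library 1 and 21.4% of library 2, and only 3 barcodes occurred in both libraries. Non-dividing blood endothelial cells were gated by markers into artery-like (203 and 188 cells in libraries 1 and 2), vein-like (164 and 129), capillary-like (117 and 145) and tip-like cells (74 and 156), and lymphatic-like cells numbered 228 and 467. Within each gate the cells carried a median of 7 to 8 artery, 5 vein, 7 capillary, 3 tip or 6 to 7 lymphatic markers. The gates left 296 and 489 blood cells in no type, and 743 of 1961 non-dividing blood cells lay near a limit of a gate. Median depth per type ran from 5750 to 9680 UMIs. Levels are CPM, the usual depth-scaled UMI count, after TMM scaling, a correction for a few abundant genes, and a gene is said to rise or fall only where edgeR's quasi-likelihood test gave a Benjamini-Hochberg adjusted p under 0.05 over all genes tested.

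Promoter windows from RefSeq (GRCm38.p6, 250 bases before to 50 after the annotated start) were matched for 27 of the 33 genes, 23 immediate-early and 4 heat shock. Egr1, Egr3, Ier2, Myc, Hsp90aa1 and Hspa8 were not searched. The windows of Hspa1a and Hspa1b are shown because this pair of neighbouring genes on chromosome 17 differed more between the libraries than any other member, and that of Hsph1 because it alone among the 27 members searched held a heat shock element. The 300-base windows of Hspa1a and Hspa1b were identical at 296 positions, and capitals mark the 4 positions where they differ. In Hsph1 the capitals mark the heat shock element, which lies after the start.
Hspa1a (chr17:34972107-34972406, minus strand): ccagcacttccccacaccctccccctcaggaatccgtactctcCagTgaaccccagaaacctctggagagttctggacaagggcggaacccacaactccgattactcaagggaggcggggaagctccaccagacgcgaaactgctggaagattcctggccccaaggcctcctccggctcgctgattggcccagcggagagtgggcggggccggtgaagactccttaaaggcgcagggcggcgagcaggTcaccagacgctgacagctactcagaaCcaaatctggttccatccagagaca
Hspa1b (chr17:34959189-34959488, minus strand): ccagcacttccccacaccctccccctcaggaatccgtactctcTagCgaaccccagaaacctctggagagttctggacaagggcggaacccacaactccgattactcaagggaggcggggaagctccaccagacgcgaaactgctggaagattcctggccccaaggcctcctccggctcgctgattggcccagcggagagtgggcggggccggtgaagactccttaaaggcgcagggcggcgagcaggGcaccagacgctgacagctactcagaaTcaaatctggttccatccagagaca
Hsph1 (chr5:149636266-149636565, minus strand): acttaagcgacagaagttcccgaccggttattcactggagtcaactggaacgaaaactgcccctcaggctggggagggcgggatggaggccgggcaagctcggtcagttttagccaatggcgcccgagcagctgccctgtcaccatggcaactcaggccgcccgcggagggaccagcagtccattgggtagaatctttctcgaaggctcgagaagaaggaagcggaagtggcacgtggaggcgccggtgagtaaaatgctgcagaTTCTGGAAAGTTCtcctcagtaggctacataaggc
The heat shock element was searched on both strands as 3 units of GAA and its reverse TTC in alternation, with 2 bases of any kind between units. It was found in 179 of 27025 genes with a window (0.662%), in 1 of the 4 heat shock members searched (Hsph1) and in 0 of the 23 immediate-early members searched. Hspa1a and Hspa1b had no match in these windows to this strict spelling.

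The windows of 5 immediate-early members are shown because they carry an element that the factors which act on immediate-early genes are known to bind. Capitals mark the cAMP response element TGACGTCA in Btg2, Dusp1 and Ppp1r15a, and the serum response element (CArG box) in Egr2 and Zfp36.
Btg2 (chr1:134079106-134079405, minus strand): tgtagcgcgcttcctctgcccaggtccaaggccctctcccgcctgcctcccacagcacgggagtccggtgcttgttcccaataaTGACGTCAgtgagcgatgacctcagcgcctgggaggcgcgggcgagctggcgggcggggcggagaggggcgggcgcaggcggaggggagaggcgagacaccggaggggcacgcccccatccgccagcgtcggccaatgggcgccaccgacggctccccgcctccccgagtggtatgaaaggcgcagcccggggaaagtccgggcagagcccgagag
Dusp1 (chr17:26508423-26508722, minus strand): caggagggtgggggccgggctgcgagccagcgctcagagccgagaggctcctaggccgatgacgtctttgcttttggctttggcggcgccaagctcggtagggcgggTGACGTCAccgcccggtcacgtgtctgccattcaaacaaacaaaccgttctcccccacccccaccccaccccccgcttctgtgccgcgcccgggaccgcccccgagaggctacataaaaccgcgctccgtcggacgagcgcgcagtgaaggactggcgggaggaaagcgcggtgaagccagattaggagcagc
Ppp1r15a (chr7:45526219-45526518, minus strand): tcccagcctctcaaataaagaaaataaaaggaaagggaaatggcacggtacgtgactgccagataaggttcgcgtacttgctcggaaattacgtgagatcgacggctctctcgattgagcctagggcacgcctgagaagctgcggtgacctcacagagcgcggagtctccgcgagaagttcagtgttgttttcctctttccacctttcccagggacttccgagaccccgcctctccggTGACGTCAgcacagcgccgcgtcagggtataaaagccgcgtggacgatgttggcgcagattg
Egr2 (chr10:67537619-67537918, plus strand): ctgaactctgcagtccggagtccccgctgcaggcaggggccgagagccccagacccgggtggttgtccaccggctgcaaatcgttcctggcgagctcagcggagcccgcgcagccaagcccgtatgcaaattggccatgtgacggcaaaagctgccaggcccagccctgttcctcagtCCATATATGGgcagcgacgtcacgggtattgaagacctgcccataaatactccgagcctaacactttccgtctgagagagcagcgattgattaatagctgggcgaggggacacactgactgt
Zfp36 (chr7:28379179-28379478, minus strand): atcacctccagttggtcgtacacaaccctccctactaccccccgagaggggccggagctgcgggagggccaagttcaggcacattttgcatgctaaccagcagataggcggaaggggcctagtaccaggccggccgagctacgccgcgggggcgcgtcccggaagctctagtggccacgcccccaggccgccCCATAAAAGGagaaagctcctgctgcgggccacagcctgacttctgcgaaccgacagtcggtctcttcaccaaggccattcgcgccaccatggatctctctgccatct
The cAMP response element, which reads the same on both strands, was found in 3 of the 23 immediate-early members searched (13.04%) against 2.03% of all genes. The serum response element was found in 2 of 23 (8.70%, Egr2 and Zfp36) against 1.81% of all genes. An AP-1 site (TGANTCA) was found in 2 of 23 (8.70%, Csrnp1 and Zfp36l1) against 8.97% of all genes, and TATAAA in 7 of 23 (30.4%) against 15.7%. No printed match overlapped a match to another of these motifs. A match describes letters and does not show binding.

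Immediate-early transcripts were present in every endothelial type and were mostly highest in vein-like or artery-like cells. By the mean of the 2 libraries, 18 of the 27 were highest in vein-like, 8 in artery-like and 1 (Rhob, a small GTPase) in tip-like cells. The lowest level was in lymphatic-like cells for 15 and in tip-like cells for 12. The order was the same at the top in both libraries for 13 of the 18 venous members and 6 of the 8 arterial members. Fos, the transcription factor subunit that pairs with Jun to form AP-1, measured 2902 and 2955 CPM in vein-like cells of libraries 1 and 2, 2170 and 3144 in artery-like, 1658 and 2233 in capillary-like, 1834 and 1516 in lymphatic-like, and 1003 and 1283 in tip-like cells. The artery-like and vein-like values overlapped, whereas both tip-like values lay under all others. Ier3, an early response gene tied to cell survival, had a wider range, from 52.7 and 120.7 CPM in lymphatic-like to 918.6 and 1878 CPM in vein-like cells. The 27 genes together took 12065 to 23514 CPM of all UMIs in artery-like, vein-like and capillary-like cells, 8442 and 12029 in tip-like and 10364 and 9659 in lymphatic-like cells.

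**Figure D1:**
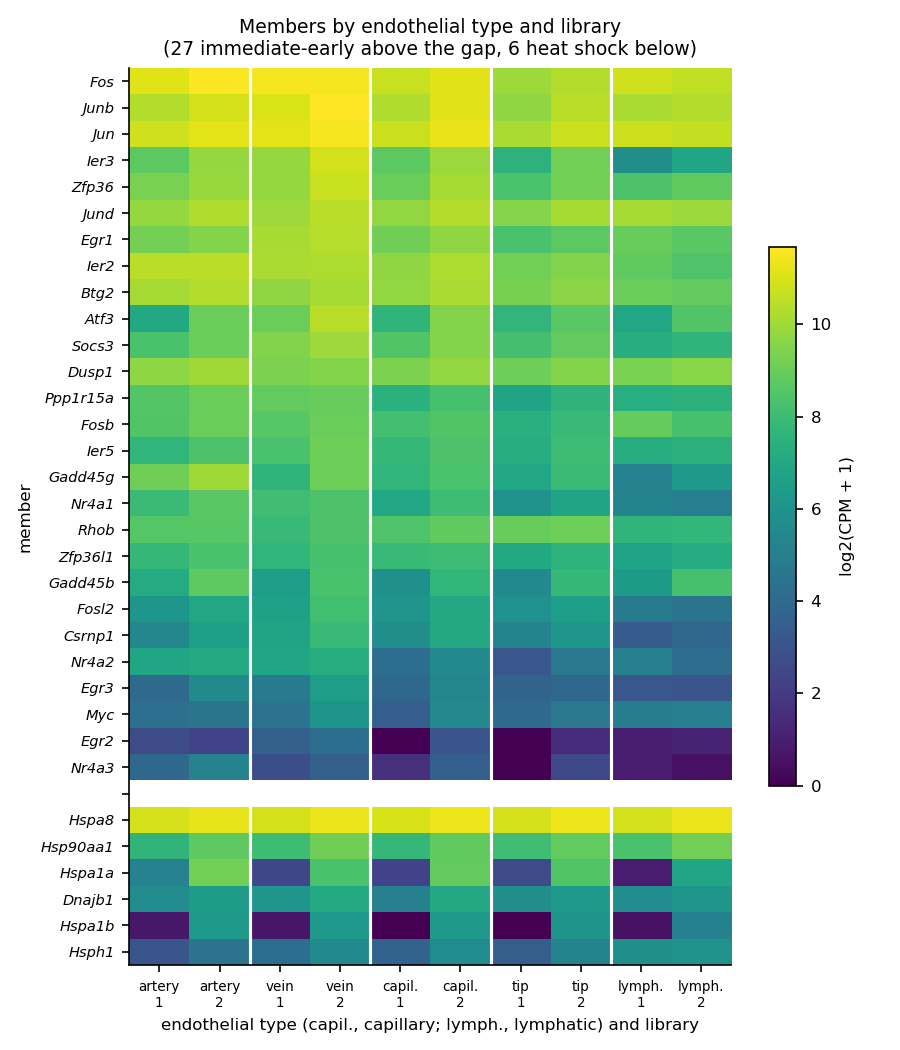
Level of each member as log2(CPM + 1), by colour, in 5 endothelial types and 2 libraries (columns), with the 27 immediate-early members above the gap and the 6 heat shock members below. Vein-like and artery-like columns are brightest for most immediate-early members, and Hspa1a and Hspa1b are dark in library 1 and bright in library 2.

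Hspa8, the chaperone that every cell makes, was level across the types. It measured 1891 to 1968 CPM over the 5 types in library 1 and 2385 to 2620 CPM in library 2, and its highest and lowest types differed by only 0.09 on the log2 scale. Hsph1, a nucleotide exchange factor for the 70 kDa chaperones, was highest in lymphatic-like cells (54.9 and 60.3 CPM) and lowest in artery-like cells (7.31 and 20.8 CPM). Hsp90aa1, the inducible form of the 90 kDa chaperone, was likewise highest in lymphatic-like cells (322.3 and 578.8 CPM) and lowest in artery-like cells (198.1 and 432.7 CPM). For Hsp90aa1 the libraries differed more than the types did.

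The inducible pair Hspa1a and Hspa1b was nearly absent from library 1 and abundant in part of the cells of library 2. Hspa1a (chr17:34969190-34972156, minus strand) measured 34.6 CPM in artery-like cells of library 1 and 585.3 CPM in library 2. Its levels in libraries 1 and 2 were 4.57 and 318.3 CPM in vein-like, 4.10 and 462.8 in capillary-like, 5.35 and 356.2 in tip-like, and 0.878 and 115.0 in lymphatic-like cells. No type of library 1 reached the lowest type of library 2. The library 1 values rest on 52, 7, 4, 4 and 2 UMIs in the same order. The ratio of library 2 to library 1 was 16.9 (95% counting interval 12.8 to 22.9) in artery-like and 113 (43.9 to 415.8) in capillary-like cells. In lymphatic-like cells it was 131 (36.1 to 1084), an interval that spans a wide range because only 2 UMIs stand in library 1.

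Hspa1b (chr17:34956436-34959238, minus strand) followed the same pattern at lower counts. It had 1 UMI in artery-like, vein-like and lymphatic-like cells of library 1 each and 0 in capillary-like and tip-like cells, against 93, 84, 158, 94 and 103 UMIs in library 2. Against a floor of 3 UMIs per library, its level was at least 25.2-fold higher in library 2 in capillary-like and at least 15.9-fold higher in tip-like cells. Genes this alike can share reads. The longest identical stretch of their transcripts was 638 bases, but the last 500 bases, from which 3' libraries draw most reads, were 51.0% identical and shared no identical stretch over 10 bases. How reads that match both were counted is not stated in the labels or files, so the split between Hspa1a and Hspa1b is uncertain.

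The other heat shock members were also higher in library 2, by smaller ratios. Dnajb1, the co-chaperone that hands substrates to the 70 kDa chaperones, measured 49.2 and 82.6 CPM in artery-like, 65.9 and 141.3 in vein-like, 32.8 and 129.3 in capillary-like, 53.5 and 79.4 in tip-like, and 50.5 and 71.8 in lymphatic-like cells of libraries 1 and 2. Summed, Hsph1, Hsp90aa1 and Dnajb1 were 2.01-fold higher in library 2 in artery-like, 1.98-fold in vein-like, 2.24-fold in capillary-like, 1.61-fold in tip-like and 1.54-fold in lymphatic-like cells. Of the 6 heat shock members, 5, 5, 5, 4 and 3 were over 1.5-fold higher in library 2 in artery-like, vein-like, capillary-like, tip-like and lymphatic-like cells. Among all 9961 genes, 7.40%, 10.2%, 11.0%, 12.4% and 5.65% were so in the same types. With 1 library on each side these ratios have no test.

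**Figure D2:**
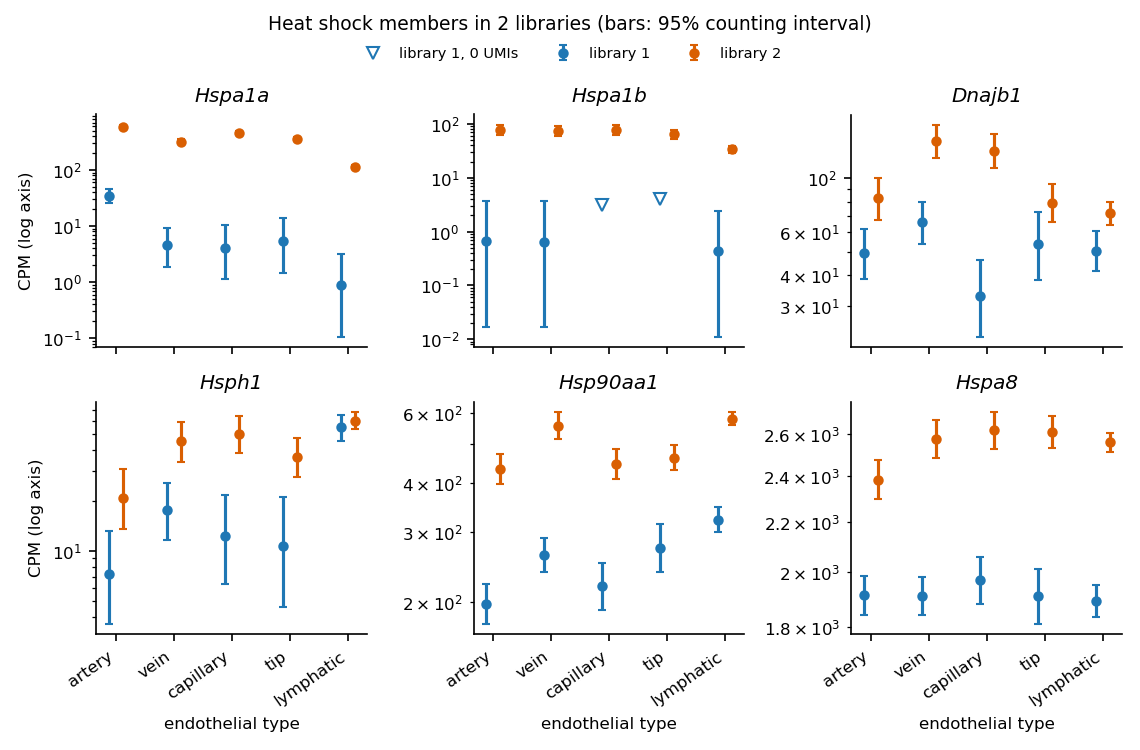
Level in CPM on a log axis of the 6 heat shock members by endothelial type, with points for library 1 (blue) and library 2 (orange), bars for the 95% counting interval of 1 library, and open triangles at the level of 3 UMIs where library 1 had 0. Library 2 lies above library 1 in every type for each gene, by 1 or more orders of magnitude for Hspa1a and Hspa1b.

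Most Hspa1a UMIs of library 2 came from a minority of cells. After thinning every cell to 4000 UMIs, a Hspa1a UMI was found in 36.0% (95% exact binomial interval 28.3 to 44.2) of artery-like cells of library 2, 25.5% of tip-like, 18.8% of capillary-like, 14.0% of vein-like and 10.3% (7.64 to 13.4) of lymphatic-like cells. In library 1 the shares were 9.29%, 4.05%, 2.94%, 2.53% and 0 of 224 cells, which allows a share of up to 1.63% (upper limit of the exact interval). Without thinning they were 39.4%, 29.5%, 26.2%, 20.2% and 12.6% in library 2. Of the 145 capillary-like cells of library 2, the 15 with the most Hspa1a held 93.2% of its UMIs, and 1 cell held 91 of the 562. In vein-like cells the top 13 of 129 cells held 95.1%. Fos was spread more evenly, with 35.2% of its UMIs in those vein-like cells with the most Fos.

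Cells set aside from the endothelial gates also had more Hspa1a and Hspa1b in library 2. Cells with pericyte or muscle markers (114 and 148) had 39.0 and 456.7 CPM of Hspa1a and Hspa1b together in libraries 1 and 2, and cells with over 0.1% haemoglobin UMIs and no pericyte or muscle call (31 and 51), which may include endothelial cells, had 8.59 and 578.8. Hspa1a was found in 47.5% of the pericyte-marked cells of library 2 after thinning, so no group that lacks the gene was there to set a background. The median mitochondrial share was also higher in library 2 in every type, from 4.62% to 5.94% in library 1 and from 5.79% to 6.61% in library 2. The summed level of the 7 pericyte markers ran from 7.75 to 38.8 CPM of all UMIs in the types of library 1 and from 4.08 to 20.7 in library 2, and was lower in library 2 in all types but the vein-like. The summed smooth muscle markers were higher in library 2 in artery-like (44.9 and 88.9 CPM) and tip-like cells (42.5 and 116.4) and lower in the other 3 types. The summed immune markers went from 2.28 to 14.9 CPM in lymphatic-like cells and from 20.6 to 7.20 in tip-like cells. The part of any of these in the difference between libraries was not tested.

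Most immediate-early members were higher in library 2 in the blood types, and in lymphatic-like cells their median was near level. Of the 27, 12, 14, 18 and 16 were over 1.5-fold higher in library 2 in artery-like, vein-like, capillary-like and tip-like cells, and 4 were so in lymphatic-like cells. The shares over all genes were 7.40%, 10.2%, 11.0%, 12.4% and 5.65%, as above. In lymphatic-like cells 2 of the 27 were over 1.5-fold lower, against 4.90% of all genes. The median log2 ratio was 0.54, 0.59, 0.84 and 0.67 in the blood types and 0.06 in lymphatic-like cells, beside medians of 0.00 to 0.02 over all genes. With 0-count members at their lower bound and 1 member at the floor in both libraries left out, the tip-like median was 0.64, and the other medians stayed as given.

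Atf3, a stress-induced transcription factor, had 134.3 and 509.4 CPM in artery-like, 532.8 and 1385 in vein-like, 198.8 and 727.1 in capillary-like, 202.1 and 412.7 in tip-like and 124.7 and 359.7 CPM in lymphatic-like cells of libraries 1 and 2. Gadd45b, a stress sensor that binds growth-arrest and kinase proteins, had 79.9 and 311.8 CPM in lymphatic-like and 45.5 and 220.3 CPM in tip-like cells. Both genes were higher in library 2 in all 5 types. Fosb, a partner of Jun, and Fos went the other way in lymphatic-like cells, with 478.6 and 306.8 CPM for Fosb. Fosb was higher in library 2 in the blood types. Fos was too, except in vein-like cells, where it was near level (2902 and 2955 CPM). Ier2, a nuclear early response gene, was level between libraries in artery-like cells at 1408 and 1412 CPM.

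**Figure D3:**
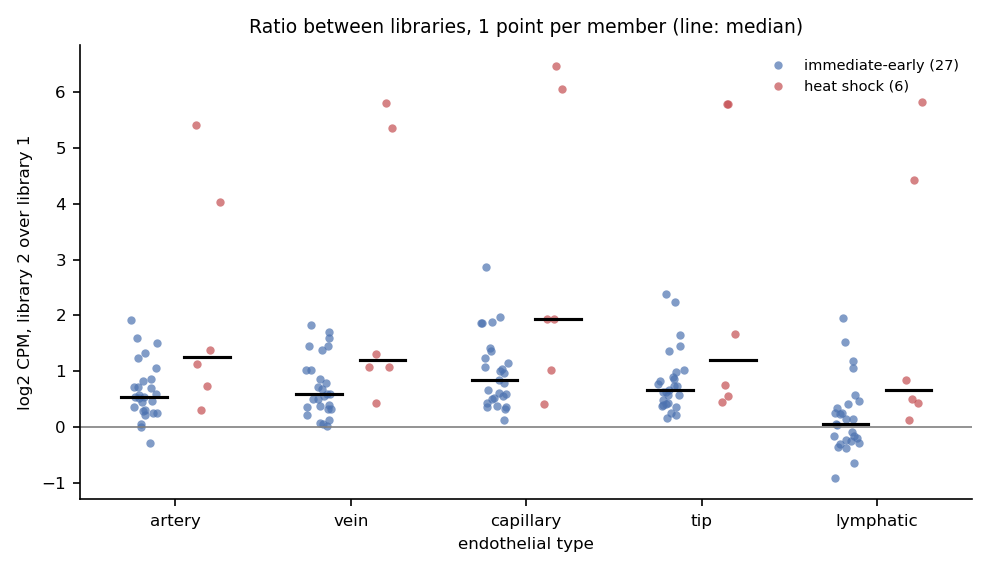
Log2 ratio of CPM in library 2 over library 1 for each member (points) in 5 endothelial types, with the median of the 27 immediate-early (blue) and the 6 heat shock members (red) as black lines. The heat shock medians run from 0.67 to 1.94 and the immediate-early medians from 0.06 to 0.84, and the points above 4 are Hspa1a and Hspa1b, whose fitted ratios depend on a prior count where library 1 had 0 UMIs.

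Within a type, cells differed widely in their immediate-early content. At 4000 UMIs per cell, the 27 members summed to a median of 66 and 89 UMIs in vein-like cells of libraries 1 and 2, with 10th and 90th percentiles of 19.7 and 133.3 in library 1. The medians were 54 and 62 UMIs in artery-like, 39.5 and 58 in capillary-like, 30 and 38 in tip-like and 32 and 27 in lymphatic-like cells. Cells with more of 1 member tended to have more of another. The rank correlation of Fos with Egr1 was 0.60 and 0.61 in vein-like and 0.53 and 0.74 in artery-like cells, and that of Junb with Zfp36 was 0.67 and 0.63 in vein-like cells. Both pairs were weaker in tip-like cells of library 1 (0.27 each). Fos with Atf3 had 0.16 in vein-like cells of library 2. The immediate-early sum and the heat shock sum were less alike, with rank correlations of 0.06 and 0.38 in artery-like, 0.22 and 0.15 in vein-like, 0.08 and 0.50 in capillary-like, -0.15 and 0.22 in tip-like and 0.05 and 0.16 in lymphatic-like cells. These describe cells that share a library and equal thinned depth. Hspa8 makes up most of the heat shock sum. In artery-like cells of library 1 it had 1912 CPM, and Hsp90aa1, the next highest, 198.1 CPM. The correlations with that sum therefore say little about the inducible members. Capillary-like cells of library 2 with a Hspa1a UMI (24 cells) had a median of 93.5 immediate-early UMIs against 51 in those without. In the same library the medians with and without were 77 and 47.5 in artery-like, 43 and 37.5 in tip-like, 27 and 27 in lymphatic-like and 84 and 89.5 in vein-like cells, so the difference was not shared by all types.

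Artery-like and vein-like cells differed in which immediate-early genes they carried. Of the 27, 10 were lower and 5 higher in artery-like cells, where 9.65% of all genes were lower and 9.54% higher, and the median change was -0.18 on the log2 scale against -0.01 over all genes. Atf3 was lower by a log2 change of -1.68 ± 0.15 (SE; adjusted p = 1.8e-07 by edgeR). Csrnp1, a nuclear protein induced by axin, was lower by -1.31 ± 0.16, with 41.2 and 99.2 CPM in artery-like and 113 and 230.2 CPM in vein-like cells. Csrnp1 overlaps Cx3cr1 on the same strand in the annotation (GENCODE M21), so its counts are uncertain. Ier3 (-1.09) and Socs3 (-1.04), the feedback inhibitor of cytokine receptors, were lower by over 1 unit as well. Egr3 (-0.94), Fosl2 (-0.91), Egr1 (-0.86), Junb (-0.73), Ier5 (-0.68) and Zfp36 (-0.66), which destabilises cytokine transcripts, were lower too. A UMI of Sele, the gene of E-selectin, was found in 66.5% and 88.4% of vein-like cells of libraries 1 and 2. In artery-like cells the shares were 0.49% and 0.53%. The members lower in artery-like cells all passed as higher in the Sele-positive cells described below. The part of Sele-carrying cells in the artery and vein changes was not tested.

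Higher in artery-like cells were Nr4a3, an orphan nuclear receptor (1.57 ± 0.44), Gadd45g (1.19 ± 0.14), Gadd45b (0.56), Rhob (0.49) and Dusp1, a phosphatase that switches off MAP kinases (0.42). Gadd45g measured 568.3 and 1014 CPM in artery-like and 197.2 and 540.7 CPM in vein-like cells, so the vein-like cells of library 2 came close to the artery-like cells of library 1. All 15 genes kept their direction in both libraries taken alone. Nr4a1 and Nr4a2, of the same receptor family, did not pass (0.06 and -0.11), and neither did Fos (-0.16). Of the heat shock members, Hsp90aa1 was lower (-0.38 ± 0.11) and Hspa1a higher (1.20 ± 0.28) in artery-like cells. The Hspa1a change was 2.64 in library 1, from 52 against 7 UMIs, and 0.88 in library 2. By DESeq2, 0 of the 6 heat shock members passed. With stricter limits on cells, 7 immediate-early members passed in place of 15, 4 higher and 3 lower, so the balance turned, and without library as a term in the fit 1 did.

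Capillary-like cells had less of a small group of immediate-early members than the mean of artery-like and vein-like cells. Of the 27 members, 7 were lower, against 4.56% of all genes. None was higher by edgeR (0 at adjusted p, 1 at unadjusted p under 0.05, and 0 by DESeq2), against 5.12% of all genes. Nr4a2, an orphan nuclear receptor, changed most, by -1.99 ± 0.30 (adjusted p = 1.5e-04 by edgeR), with 17.4 and 46.9 CPM against 113.7 to 154.4 CPM in artery-like and vein-like cells. Those groups did not overlap. Ppp1r15a, which restarts translation after stress, fell by 0.98, Gadd45g by 0.97, Gadd45b by 0.91, Nr4a1 by 0.72, Fos by 0.52 and Ier3 by 0.50. Not all of these lay under both types. Ier3 measured 429.3 and 951.1 CPM in capillary-like and 429.4 and 892.2 in artery-like cells, so it was lower only against vein-like cells. Gadd45g in library 1 measured 205.9 CPM in capillary-like and 197.2 in vein-like cells. No heat shock member passed in this comparison (0 by edgeR, 0 at unadjusted p under 0.05 in either direction, and 0 by DESeq2). With types taken from clusters in place of gates, 25 of 27 immediate-early members were lower, and with stricter limits on cells 2 were.

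Tip-like cells, which carry markers of sprouting endothelium, had lower immediate-early levels than gated capillary-like cells, but this order turned with the way the types were drawn. By the gates, 14 of 27 members were lower, against 2.66% of all genes, and 0 were higher (1 at unadjusted p under 0.05, and 0 by DESeq2), against 2.67% of all genes. Nr4a1 was lower by -1.13 ± 0.21, Egr1, a zinc finger factor of the growth factor response, by -0.93 ± 0.15, Ier3 by -0.90, Zfp36 by -0.81 and Fos by -0.76. Egr1 measured 315.9 and 423.8 CPM in tip-like against 566.6 and 852.3 CPM in capillary-like cells, and the groups did not overlap. With types taken from clusters, all 14 genes had the opposite sign and 9 of the 27 members passed as higher in tip-like cells. The clusters were mixed: 124 of 251 gated cells of the capillary-like cluster and 92 of 164 of the tip-like cluster were in the gate of that name. DESeq2 called 7 of the 27 members lower. No heat shock member passed (0 by edgeR, 0 at unadjusted p under 0.05 and 0 by DESeq2).

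Lymphatic-like cells had lower levels of most immediate-early members than blood endothelium. Against the mean of the 4 blood types, 20 of 27 members were lower, beside 20.5% of all genes, and 0 were higher (0 at unadjusted p under 0.05, and 0 by DESeq2), beside 21.0% of all genes. The median change was -0.93 against 0.02 over all genes. Ier3 was lower by -3.02 ± 0.12 (adjusted p = 3.9e-13 by edgeR), Csrnp1 by -2.92 ± 0.16, Gadd45g by -2.64 ± 0.14, Nr4a1 by -2.62 ± 0.18 and Fosl2 by -2.20 ± 0.23. Nr4a1 measured 37.3 and 31.5 CPM in lymphatic-like cells, under every blood type (62.9 to 410.2 CPM). Not all members that passed lay under every blood type: Junb, Egr1, Egr2, Nr4a2 and Ppp1r15a were lowest in tip-like cells. Egr1 measured 490.9 and 414.3 CPM in lymphatic-like and 315.9 and 423.8 CPM in tip-like cells. Lymphatic-like cells were not tested against tip-like cells alone. Nr4a3 and Egr2 passed too, but lymphatic-like cells held only 2 and 2 UMIs of Nr4a3 and 2 and 6 of Egr2, so their fitted changes (-3.81 and -1.96) depend on a prior count. Egr3, Socs3, Ier2 and Nr4a2 fell by 1.97, 1.56, 1.36 and 1.28, and the other 9 by 0.41 (Junb) to 0.95 (Zfp36).

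Most AP-1 subunits did not pass in lymphatic-like cells. Fos (-0.27), Fosb (0.22), Jun (-0.25) and Jund (-0.01) were among them, while Junb and Fosl2 passed as lower. Dusp1, Gadd45b and Myc, the growth regulator, did not pass either. For Fos, Fosb, Jun, Jund and Myc the sign differed between the libraries: Fosb was 0.73 higher in library 1 and 0.33 lower in library 2. Among heat shock members, Hsph1 (1.27 ± 0.21) and Hsp90aa1 (0.37 ± 0.08) were higher and Hspa1a (-1.93 ± 0.24) and Hspa1b (-1.11 ± 0.17) lower in lymphatic-like cells. The Hsph1 change was 2.15 in library 1 and 0.71 in library 2. With stricter limits on cells neither Hsph1 (0.86, adjusted p = 0.10 by edgeR) nor Hsp90aa1 (0.27, adjusted p = 0.20) passed, while Hspa1a and Hspa1b did. Hspa1b had the opposite sign in library 1 (0.14), where its counts were near 0.

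**Figure D4:**
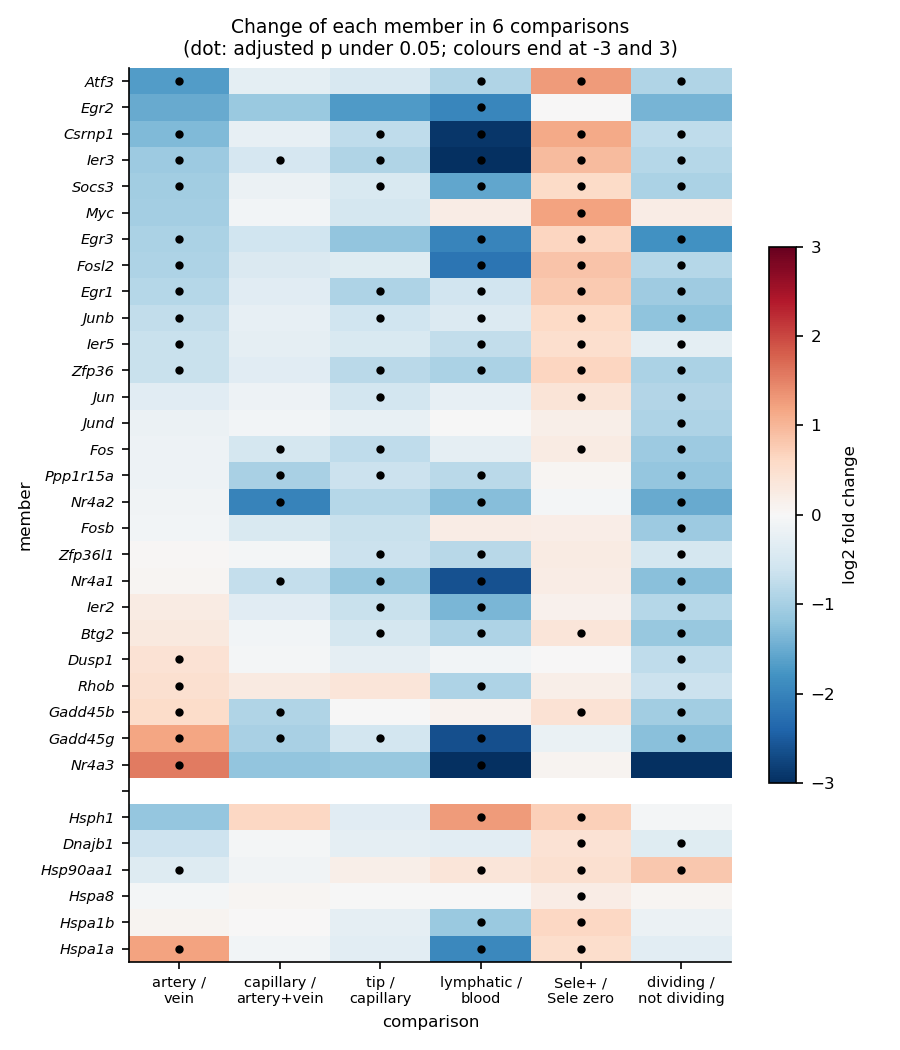
Log2 fold change of each member (rows) in the 6 comparisons (columns), red for higher and blue for lower in the group named before the slash, with a dot where edgeR's adjusted p was under 0.05. Blue dominates the lymphatic and dividing columns for immediate-early members and red the Sele column, and the 2 columns of the tip and Sele comparisons depend on the choices named in the text.

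Blood endothelial cells outside the vein gate were split by Sele, the gene of E-selectin, an adhesion molecule that inflamed endothelium makes, into 45 and 154 cells with at least 2 Sele UMIs and 621 and 767 with 0. Sele-positive cells had higher levels of 15 of the 27 immediate-early members, against 4.42% of all genes, and 0 were lower (0 at unadjusted p under 0.05, and 0 by DESeq2), against 5.36% of all genes. Atf3 rose by 1.28 ± 0.10, Myc by 1.20 ± 0.20, Csrnp1 by 1.15 ± 0.14, Ier3 by 0.94 ± 0.09 and Fosl2 by 0.86 ± 0.13 on the log2 scale. Atf3 measured 529.5 and 958 CPM in Sele-positive against 156.7 and 489.7 CPM in Sele-zero cells, so its libraries differed as much as its groups. Dusp1, Ppp1r15a and the 3 Nr4a members did not pass. All 15 members kept their direction in each library alone.

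All 6 heat shock members passed as higher in Sele-positive cells, but the pattern held in 1 library for 3 of them. Hsp90aa1 (0.49 ± 0.10), Dnajb1 (0.43 ± 0.15) and Hspa8 (0.23 ± 0.08) were higher in each library. Hspa1a, Hspa1b and Hsph1 were higher in library 2 (0.60, 0.62 and 0.91) and had the opposite sign in library 1 (-1.53, -0.41 and -1.40), where Sele-positive cells held few UMIs of them. DESeq2 called 9 of the 27 immediate-early and 0 of the 6 heat shock members, and stricter limits on cells left 7 and 2. This fit had 1 residual degree of freedom, so its SEs and p-values lean mostly on a spread shared over all genes. They say little about how each member varied between the libraries: Hspa1a, Hspa1b and Hsph1 passed although their signs differed. Sele-positive cells were also deeper, with medians of 11331 and 9607 UMIs against 6886 and 6941. They carried a median of 3 vein, 2 artery and 6 capillary markers, against 1, 3 and 5 in Sele-zero cells of both libraries. The part of depth and of these markers was not tested.

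Dividing endothelial cells had lower levels of nearly all immediate-early members. Cells with at least 4 dividing markers were compared with other cells that had at most 1. Those between these limits were left out. In blood and lymphatic cells together, 24 of 27 were lower, against 19.1% of all genes, and 0 were higher (0 at unadjusted p under 0.05, and 0 by DESeq2), against 19.2% of all genes. Egr3 was lower by -1.82 ± 0.36, Gadd45g by -1.26 ± 0.13, Nr4a1 by -1.26 ± 0.18, Junb by -1.22 ± 0.11 and Fos by -1.10 ± 0.10. Myc (0.22), Egr2 and Nr4a3 did not pass. Fos measured 1054 and 1534 CPM in dividing and 1983 and 2310 CPM in other blood cells, and 661.7 and 592 against 1823 and 1600 CPM in lymphatic cells. In each lineage the dividing values lay under the others.

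CPM is a share of a cell's transcripts, and more UMIs were counted in dividing cells. The gate counts detected markers, so deeper cells pass it more readily. The part of the gate in the difference in UMIs per cell was not tested. All UMIs per cell averaged 14384 and 14386 in dividing against 8135 and 8076 in other blood cells, and 18399 and 19078 against 9516 and 9723 in lymphatic cells. Counted per cell, the 27 members gave 103.2 and 180.6 UMIs in dividing and 112.4 and 145.5 in other blood cells, so the sign of the difference turned in library 2. In lymphatic cells they gave 76.6 and 88.7 UMIs per dividing cell against 100.7 and 100.7. Hsp90aa1 was higher in dividing cells by share as well (0.81 ± 0.12), with 507.6 and 674.2 against 224.1 and 456.2 CPM in blood cells, and Dnajb1 was lower (-0.37 ± 0.13). The Dnajb1 change was -0.02 in library 1 and -0.55 in library 2, and DESeq2 did not call it. The other 4 heat shock members did not pass.

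**Figure D5:**
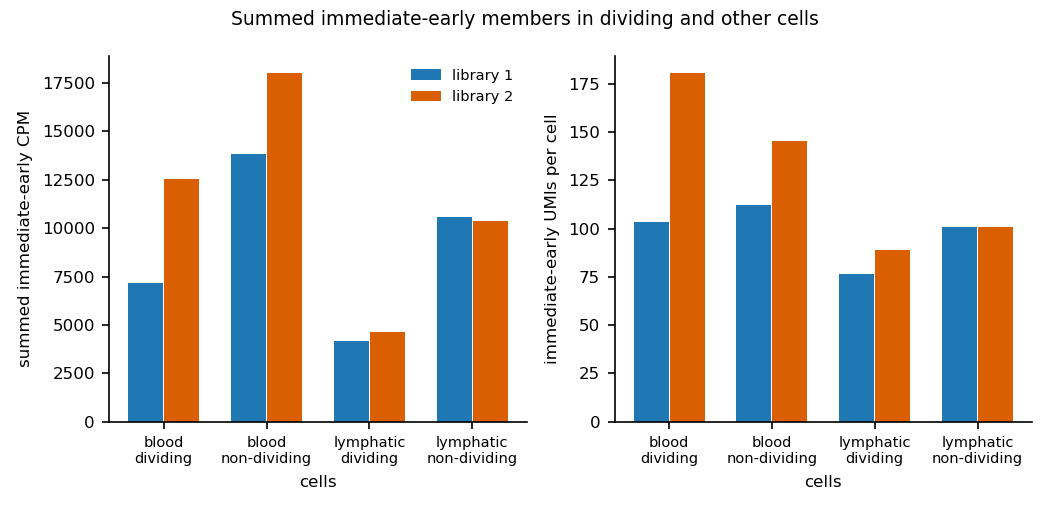
Summed level of the 27 immediate-early members in dividing and other cells (at most 1 dividing marker) of the blood and lymphatic lineages. Bars for each library give CPM of all UMIs (left) and UMIs per cell (right). The share is lower in dividing cells in both lineages, from 4162 to 12552 against 10362 to 18021 CPM, while the count per blood cell is lower in library 1 and higher in library 2.

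Genes related to the members by function were tested in the same fits. Of 32 further immediate-early genes with enough counts, 12 fell and 6 rose in artery-like against vein-like cells (9.65% and 9.54% of all genes), with Cebpd (-2.03) and Irf1 (-1.65) lower and Id1 (1.57) higher. In dividing cells 24 of 33 such genes fell and 0 rose (19.1% and 19.2% of all genes), led by the flow-induced factors Klf4 (-1.14) and Klf2 (-1.07). Klf2 and Klf4 were also lower in capillary-like cells (-1.08 and -0.97). Of 31 other chaperone genes, 17 rose and 1 fell in dividing cells (19.2% and 19.1% of all genes), with Ptges3 (0.86), Hspd1 (0.80) and Tcp1 (0.69) at the smallest adjusted p, whereas the inducible small chaperone Hspb1 was lower in lymphatic-like cells (-2.11) and higher in capillary-like (1.18) and Sele-positive cells (0.76). Hspa4l, a relative of Hsph1, was higher in lymphatic-like cells (3.22). Among 15 NF-kB feedback genes 8 fell and 1 rose in artery-like cells, 11 fell and 0 rose in lymphatic-like cells (20.5% and 21.0% of all genes), and 5 rose and 0 fell in Sele-positive cells (4.42% and 5.36% of all genes). Nfkbia, the inhibitor that NF-kB induces against itself, changed by -1.01, -1.34 and 0.87 there.

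The upstream regulators tested numbered 18, among them heat shock factor Hsf1 and the serum response factor Srf. Of these, 1 rose and 1 fell in artery-like cells, against 9.54% and 9.65% of all genes. In lymphatic-like cells 4 rose and 4 fell, near the 21.0% and 20.5% of all genes. Srf was lower there by -1.07 ± 0.19. Between the libraries, the other chaperone genes were close to level, with a median log2 ratio of 0.07 to 0.16 over the types. By type, 1 to 5 of the 31 were over 1.5-fold higher in library 2, near the 5.65% to 12.4% of all genes. The endoplasmic reticulum stress genes had medians of 0.005 to 0.14, and the reference genes of 0.04 to 0.17. The other immediate-early genes were higher in library 2 (medians of 0.28 to 0.71), lymphatic-like cells included, and so were the NF-kB feedback genes (medians of 0.25 to 0.72).

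Genes outside the lists were ranked by how their log2 CPM followed the mean of each set over the 10 sums of type and library, among 4776 candidates. Sbno2 (r = 0.97), Adamts1 (0.97), Cdkn2d (0.96), Il6 (0.95) and Ppp1r10 (0.95) followed the immediate-early mean most closely. Rbm25 (0.95), Rsrc2 (0.93), mt-Atp6 (0.92), mt-Atp8 (0.92) and Ubb (0.92) followed the heat shock mean. The last 5 genes moved over narrow ranges of log2 CPM: 7.87 to 8.21, 7.16 to 7.64, 13.4 to 14.0, 5.00 to 5.92 and 11.3 to 11.7 in that order. The 10 sums share 2 libraries and 5 types, so these values only describe likeness of pattern.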

How the data were processed

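The deposited values are UMI counts per gene and cell barcode from 10x Genomics 3' version 3 libraries. Per the submitters' processing notes, the authors used Cell Ranger and Seurat 3.0.2 with mm10. Software version 3.0.2 stands in the headers of the matrices. The antibody-tag libraries were not used.

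Cells with at least 500 genes and at most 10% mitochondrial UMIs were kept. Types were gated on summed, standardised marker scores (score at least 0.75, margin at least 0.5), with at least 4 lymphatic or 4 dividing markers for those gates, and the limits were set from marker counts without the members. Scrublet marked 3 and 11 cells, too few to count as a working doublet call, and cells with both lymphatic and capillary markers were removed. Counts were summed per library and type and tested with edgeR 4.0.16 (R 4.3.3; TMM scaling, library as a block, Benjamini-Hochberg adjustment over all genes). Residual degrees of freedom were 4 for types, 1 for Sele and 3 for division. DESeq2 1.42.0, other filters, scalings, gates and Leiden clusters (scanpy 1.11.5) were alternatives. Clusters were named by the gate with most of their gated cells, a rule loosened from a majority because a majority left no capillary cluster. The tests were checked on simulated data. Intervals are exact, at 95%, and cover counting error only.

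The members and lists were chosen with earlier results of these data known. All 33 members are named, with up to 3 genes per other list and comparison by smallest adjusted p, and the 5 genes most correlated with each set's mean among those with a mean log2 CPM of at least 5. Library blocks pair the types because every type was taken from both libraries. Genes that overlap another on the opposite strand, among them Jun, Junb, Jund, Zfp36, Zfp36l1, Dusp1, Ppp1r15a and Hspa1a, have uncertain counts where strand was not used, which the sources used here do not state.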

Additional observations from a re-analysis of the deposited data

Results flagged for a closer look

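As a share of all UMIs, the summed immediate-early level was higher in library 2 in all 4 blood types and slightly lower in lymphatic-like cells. The log2 ratio of library 2 over library 1 was 0.4352 in artery-like, 0.3903 in vein-like, 0.5863 in capillary-like and 0.5107 in tip-like cells. In lymphatic-like cells it was -0.1015 (95% counting interval -0.12 to -0.08). The opposite signs are what drew attention. No TMM scaling enters these ratios. On this scale the median over all genes was -0.1049 in lymphatic-like cells, so their summed level moved about as much as the median gene. It was -0.064 in artery-like, -0.115 in vein-like, -0.075 in capillary-like and -0.066 in tip-like cells. With 1 library on each side, the difference between types was not tested.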

How the results depend on the processing

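Of 112 recomputed counts of members passing, 28 moved by over 1.5 times. Without the replicate block, which takes out the difference between the libraries, immediate-early members passing went from 15 to 1 (artery against vein), 7 to 2 (capillary), 14 to 1 (tip) and 15 to 2 (Sele), and heat shock members from 2 to 0 (artery against vein), 4 to 1 (lymphatic), 6 to 0 (Sele) and 2 to 1 (dividing). With stricter limits on cells, immediate-early counts were 7, 2 and 7 for artery, capillary and Sele, and heat shock counts 0, 2 (both lower) and 2 for artery, lymphatic and Sele. DESeq2 gave 7 immediate-early members for tip and 9 for Sele, and 0, 0 and 1 heat shock members for artery, Sele and dividing. Without the low-count filter, 4 heat shock members passed for artery and 12 immediate-early members for capillary. Stricter gates gave 1, 3 and 1 heat shock members for artery, Sele and dividing, and keeping dividing cells in the types gave 1 for artery. The immediate-early counts for lymphatic and dividing cells stayed within 1.5 times under every alternative run.

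Types from clusters gave 25 immediate-early members and 1 heat shock member for capillary, and 9 immediate-early members for tip, now higher. The tip changes reversed to Fos 0.63, Jun 0.42, Junb 0.46, Egr1 0.34, Ier2 0.44, Ier3 0.94, Nr4a1 0.87, Zfp36 0.48, Zfp36l1 0.48, Btg2 0.39, Socs3 0.64, Csrnp1 1.003, Gadd45g 0.27 and Ppp1r15a 0.555. In Sele-positive cells Gadd45b reversed to -0.047 with stricter limits on cells and Hspa1a to -0.30 by DESeq2. Leaving out 1 replicate, the Sele changes ranged from -1.53 (without replicate 2) to 0.60 (without replicate 1) for Hspa1a, from -0.41 to 0.62 for Hspa1b and from -1.40 to 0.91 for Hsph1, and that of Hspa1b in lymphatic-like cells from -1.10 (without replicate 1) to 0.14. The cause of these reversals was not tested.

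The median library ratio over types was 0.59 for immediate-early members and 0.64 with stricter limits on cells, 0.51 without limits, 0.475 by total UMIs and 0.499 with stricter gates. For heat shock members it was 1.21, and 1.12 without limits, 1.13 by total UMIs and 1.01 with stricter gates. The lymphatic immediate-early median reversed to -0.27 with stricter limits and -0.051 by total UMIs. The median over all genes was 0.003 and -0.105 in those 2 settings. Of single-member results, 1004 kept direction and, where tested, side of the threshold, 156 no longer passed, 28 moved and 20 reversed. Leaving out 1 replicate allows no test. Results without replicate 1 gave 104 of the 1004 and 5 of the 28. Those without replicate 2 gave 82 of the 1004, 23 of the 28 and 4 of the 20. Low counts limit Egr2, Nr4a3, and Hspa1a and Hspa1b in library 1.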
